A study of Homo sapiens with 2 samples.

Results

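The genes described here are HSPA5, HSP90B1, CALR, PDIA4, PDIA6, MANF, HERPUD1, SEL1L, ATF6 and XBP1, which fold proteins in the endoplasmic reticulum (ER), clear misfolded ones or carry the ATF6 and IRE1 signals from the ER to the nucleus. They were chosen by gene symbol, and all 10 had rows in the expression table, with 28 of its 34714 transcripts and 10 of its 11589 symbols. The RNA came from HepG2, an established human line derived from a liver cancer, grown in DMEM with fetal bovine serum. FSS-HepG2 cells had been exposed for 8 h to fluid shear stress (FSS), a laminar flow in a parallel plate chamber, and static cultured HepG2 cells served as the control. Each condition had 1 library, made by mixing 3 replicates at passage 10 to 15. The spread among those replicates is therefore not in the values, and no difference below has a replicate check or a p-value. Levels are in FPKM, a measure of fragments that is scaled by transcript length and library size, and a gene's level is the sum over its listed transcripts. Differences are log2 ratios of FPKM + 1, FSS over static, and folds are given on the same scale, where the added 1 damps differences at low levels.

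The ER folds secreted and membrane proteins with the help of chaperones, which hold unfinished chains, and of disulfide isomerases, which form and rearrange bonds between cysteines. When misfolded protein builds up, sensors in the ER membrane start the unfolded protein response. ATF6 moves to the Golgi, where proteases release its cytoplasmic part as a transcription factor. IRE1, encoded by ERN1, cuts a short block out of XBP1 mRNA, which shifts the reading frame and gives an active transcription factor, XBP1s. Both factors are known to drive chaperone and ER degradation genes through ER stress elements in their promoters. Another sensor, PERK, slows translation and raises ATF4. Hepatocytes secrete large amounts of plasma protein and depend on this machinery.

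Values were read against the whole table. The FPKM of all rows added up to 323352 for FSS and 325712 for static cells, with unknown read depth. A total of 11221 genes reached 0.5 FPKM in a library, and 10.5% of them were higher by 1.5-fold or more in FSS and 29.5% lower by as much, with a median log2 ratio of -0.25. Centred values below are relative to -0.23, the median over genes that reached 5 FPKM. The hepatocyte and HepG2 markers were listed for 5 of 21 symbols. The others, ALB and AFP among them, were not listed, so their levels are unknown. CPS1, a urea cycle enzyme, was at 119 FPKM in FSS and 442 in static cells, and the keratin KRT8 at 202 and 302. Another keratin, KRT18, was at 275 FPKM in FSS and 265 in static cells, and FOXA1, a liver transcription factor, at 7.41 and 5.69. The sum over the 5 was 604 and 1015 FPKM, and most of that difference was in CPS1. ASGR1, the hepatocyte asialoglycoprotein receptor, was near 0, at 0.176 FPKM in FSS and listed at 0 in static cells. Fibroblast markers were listed for 4 of 6 symbols, with a sum of 13.1 FPKM in FSS and 41.7 in static cells. Leucocyte markers were listed for 2 of 4, at 6.06 and 1.70 FPKM, and endothelial markers for 1 of 3, at 0.634 and 0.818 FPKM. The part of these markers in the results below was not tested.

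HSPA5 and HERPUD1 stood apart from the other 8 genes. Both were more than 2-fold higher in FSS-HepG2 cells, while the remaining chaperones, isomerases and sensors lay within 1.5-fold. Of the 10 genes 2 were at least 1.5-fold higher, against the 10.5% of all genes given above, and 0 were lower, against 29.5%. Their median log2 ratio was 0.24, with 8 above 0 and 9 above the all-gene median, and ATF6 was the exception below it. Among all 11221 genes, 3832 were above 0. After centring, 4 genes were at least 1.5-fold higher, against 17.8% of all genes, CALR and MANF having joined HSPA5 and HERPUD1. Of the 10 genes 0 were then lower, against 17.9% of all genes, and the median was 0.47. All 10 genes summed to 1629 FPKM in FSS and 1167 FPKM in static cells, which was 0.504% and 0.358% of the listed FPKM. HSPA5 alone made up 255.9 of the 462 FPKM between those sums. In bulk RNA, fewer cells that express a gene and less of its RNA per cell cannot be told apart.

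**Figure D1:**
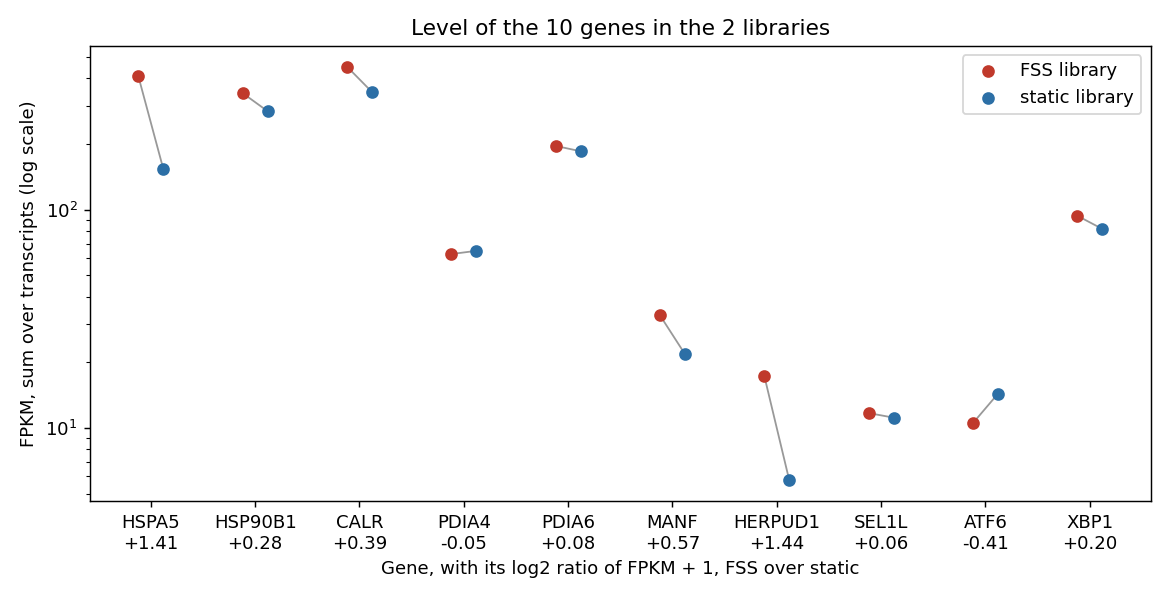
FPKM of the 10 genes on a log axis, with the FSS library as red points and the static library as blue points, 1 library each and no error bars. The joined points slope steeply for HSPA5 (409 and 153 FPKM) and HERPUD1 (17.3 and 5.74 FPKM), and the reverse slope is seen for ATF6 (10.5 and 14.3 FPKM) and, slightly, PDIA4.

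In level the genes ran from abundant chaperones to scarce sensors. In FSS cells the order from high to low was CALR, HSPA5, HSP90B1, PDIA6, XBP1, PDIA4, MANF, HERPUD1, SEL1L and ATF6. In static cells it was CALR, HSP90B1, PDIA6, HSPA5, XBP1, PDIA4, MANF, ATF6, SEL1L and HERPUD1. HSPA5 thus stood above HSP90B1 and PDIA6 in FSS and below both in static cells, and HERPUD1, the lowest in static cells, stood above SEL1L and ATF6 in FSS. With 1 library each, it cannot be said which neighbours in these orders differ beyond their spread.

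The promoters of these genes are shown because 6 of the 10 hold the full ER stress element, the sequence through which ATF6 and XBP1s are known to act, and because the genes that hold it did not share a ratio. RefSeq windows of GRCh38.p14, from 250 bases before to 50 after each start, were found for all 10 genes, with 13 windows since PDIA4, PDIA6 and XBP1 have several starts. The motifs searched, on both strands, were ERSE, which is CCAAT, then 9 bases, then CCACG, and ERSE-II, which is ATTGG, then 1 base, then CCACG. ERSE was in 27 of 35116 windows (0.0769%), or 25 of 27305 genes, and ERSE-II in 19 windows (0.0541%) of 19 genes. Chaperone and ER degradation genes are already known to be driven through these elements. The shares are therefore a description and no independent test of enrichment in the 10 genes. Capitals mark the boxes of the full elements, and the sequences run 5′ to 3′ along the strand of the gene.
HSPA5: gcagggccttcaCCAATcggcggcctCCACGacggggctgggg
HSP90B1: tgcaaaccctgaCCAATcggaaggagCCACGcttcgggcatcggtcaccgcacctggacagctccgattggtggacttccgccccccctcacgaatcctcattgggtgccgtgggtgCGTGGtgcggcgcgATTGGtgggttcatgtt
CALR: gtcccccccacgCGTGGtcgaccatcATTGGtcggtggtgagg
PDIA6: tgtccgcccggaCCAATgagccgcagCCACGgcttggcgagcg
XBP1: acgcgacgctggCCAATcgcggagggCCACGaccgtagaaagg
HERPUD1: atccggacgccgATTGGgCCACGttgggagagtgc
These lie at chr9:125241379-125241421 on the minus strand for HSPA5, chr12:103930204-103930351 on the plus strand for HSP90B1, chr19:12938372-12938414 on the plus strand for CALR, chr2:10812841-10812883 on the minus strand for PDIA6, chr22:28800591-28800633 on the minus strand for XBP1 and chr16:56932013-56932047 on the plus strand for HERPUD1. All end before the RefSeq start, although the last bases of the HSP90B1, PDIA6 and XBP1 stretches fall inside the first exon of a GENCODE transcript.

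The HSPA5 element ran from base -66 to -48 of the start, the XBP1 element from -52 to -34 and the PDIA6 element from -86 to -68. HSP90B1 had 2 elements, at -194 to -176 and, in reverse, -89 to -71, and CALR had 1 in reverse at -225 to -207. HERPUD1 held ERSE-II at -117 to -107. Each ERSE contains a CCAAT and a CCACG box by its definition, and those boxes alone were in 34.6% and 38.1% of all windows. The core TGACGTG of another element, the UPRE, was in 1.97% of windows and in none of the 13 here. PDIA4, MANF and SEL1L had single boxes but no full element in these windows, and ATF6 had neither box. MANF-204, the listed MANF transcript, begins at base -244 of the RefSeq start, and PDIA4-201 at base -151 of its nearest one. Most bases of those windows therefore lie after the start of the measured transcript. Sequence outside the windows was not searched, so a full element further upstream of MANF or PDIA4 was not tested. The log2 ratios of the genes with ERSE were 1.41 for HSPA5, 0.39 for CALR, 0.28 for HSP90B1, 0.20 for XBP1 and 0.08 for PDIA6. Of all 16 measured genes with ERSE 2 were higher, 2 lower and 12 within 1.5-fold, with a median of 0.11, and of the 14 with ERSE-II 1 was higher, 1 lower and 12 within, with a median of -0.25. The higher counts of both sets are near the 10.5% of all genes, and 29.5% of all genes were lower. HERPUD1 was the higher one with ERSE-II, and CANX, a membrane lectin chaperone with ERSE, was among the lower ones. A match is a description of letters and does not show that a factor bound there.

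**Figure D2:**
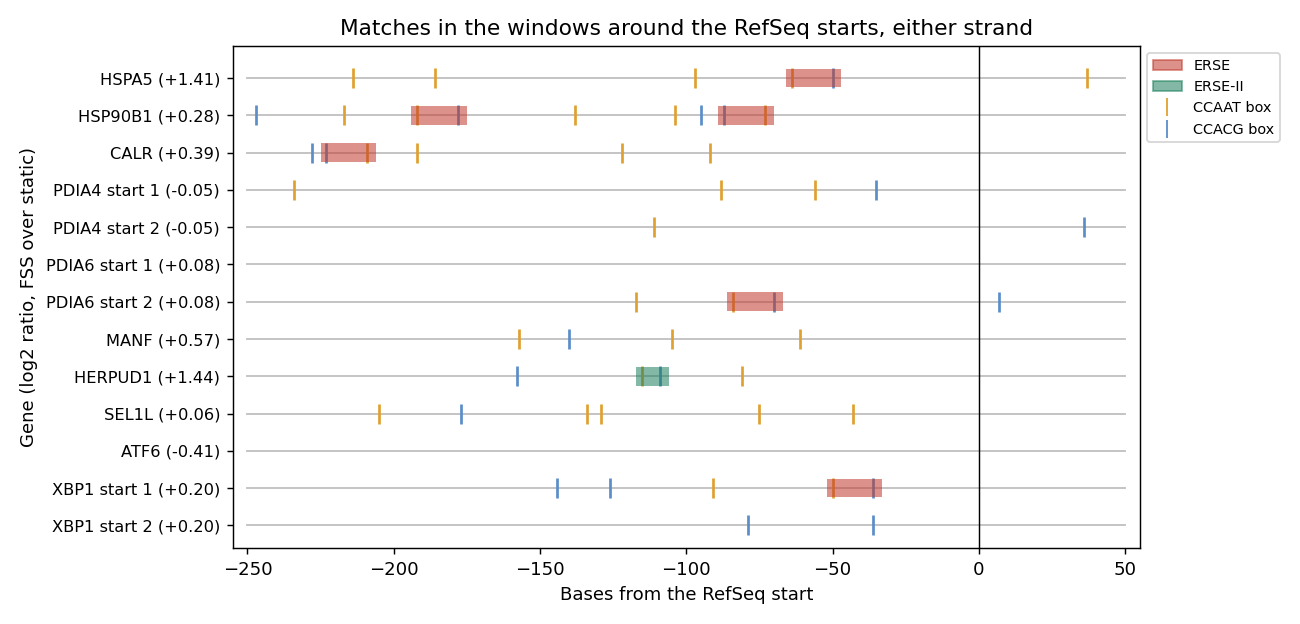
Matches in the 13 promoter windows, by bases from the RefSeq start on the x axis, with ERSE as red boxes, ERSE-II as a green box and single CCAAT and CCACG boxes as orange and blue ticks; the log2 ratio of each gene stands beside its name. ERSE boxes are seen in 5 genes whose ratios ranged from 0.08 for PDIA6 to 1.41 for HSPA5.

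HSPA5 (ENSG00000044574.7_2, chr9:125234853-125241330 on GRCh38, minus strand) encodes BiP, the ER member of the HSP70 family, which binds exposed stretches of new chains and also holds the sensors inactive. It reached 409 FPKM in FSS-HepG2 cells, against 153 FPKM in static cells. The log2 ratio was 1.41, or 2.66-fold higher, and 1.64 after centring, and 98.1% of genes had a lower ratio. The table listed it as 1 transcript, HSPA5-201, with 654 codons in 8 exons, so its sum could not hide opposite transcripts.

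The HSP70 and HSP90 relatives in the cytosol give the setting for this value. HSPA8, the constitutive cytosolic HSP70, was at 1268 FPKM in FSS and 428 FPKM in static cells, a log2 ratio of 1.57, close to that of HSPA5. The heat-inducible HSPA1A and HSPA1B had log2 ratios of 3.59 and 3.78, although these near-identical copies share reads and their single values are uncertain. HSPA9, the mitochondrial HSP70, was at 250.5 FPKM in FSS and 176 FPKM in static cells (log2 ratio 0.51). No test of these differences was possible.

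HSP90B1 (ENSG00000166598.14_3, chr12:103930107-103953645, plus strand), the ER member of the HSP90 family, was at 342 FPKM in FSS and 283 FPKM in static cells, a log2 ratio of 0.28, within 1.5-fold. HSP90B1-201, the full-length form of 803 codons, held 327 of the FSS and 271 of the static FPKM. HSP90B1-207, a transcript with a partial coding sequence, was at 14.2 and 10.1 FPKM. The other transcripts, HSP90B1-210 and HSP90B1-211, were under 5 FPKM in both libraries. All 4 lay within 1.5-fold as deposited, and after centring HSP90B1-207 passed it, at a log2 ratio of 0.68, while the sum stayed within it, at 0.51. The cytosolic relatives HSP90AA1, at 1142 and 474 FPKM, and HSP90AB1, at 1057 and 689 FPKM, had log2 ratios of 1.27 and 0.62, and the mitochondrial TRAP1, at 58.8 and 96.9 FPKM, had a log2 ratio of -0.71, which lay within 1.5-fold after centring.

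CALR (ENSG00000179218.13_2, chr19:12938578-12944489, plus strand) encodes calreticulin, a soluble lectin chaperone that binds calcium and glycoproteins. It was the most abundant of the 10 in both libraries, at 453 FPKM in FSS and 346 FPKM in static cells, a log2 ratio of 0.39 that passed 1.5-fold only after centring, at 0.62. The full-length CALR-201 was at 403 FPKM in FSS and 318 FPKM in static cells (log2 ratio 0.34). Both transcripts with a partial coding sequence were past 1.5-fold, CALR-202 at 15.3 and 6.34 FPKM and CALR-206 at 33.9 and 21.9 FPKM. CALR-206 lay under that line with 5 FPKM added, at a log2 ratio of 0.54. The membrane-bound relative CANX, calnexin, was at 121 FPKM in FSS and 201 FPKM in static cells, a log2 ratio of -0.73, or 1.66-fold lower, and lay within 1.5-fold after centring.

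PDIA4 and PDIA6, disulfide isomerases with thioredoxin-like domains, kept nearly the same sums in both libraries. PDIA4 (ENSG00000155660.10_3, chr7:149003062-149028641, minus strand) was listed as PDIA4-201 alone, at 62.6 FPKM in FSS and 64.8 FPKM in static cells, a log2 ratio of -0.05, and of 0.18 after centring. PDIA6 (ENSG00000143870.12_3, chr2:10783391-10837977, minus strand) was at 196 FPKM in FSS and 185 FPKM in static cells (log2 ratio 0.08). Their relatives P4HB, at 168 and 167 FPKM, and PDIA3, at 124 and 104 FPKM, had log2 ratios of 0.02 and 0.25.

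The PDIA6 sum hid a difference between its transcripts. PDIA6-201 was at 146 FPKM in FSS and 185 FPKM in static cells, a log2 ratio of -0.34. PDIA6-207 was at 49.9 FPKM in FSS but 0.0380 FPKM in static cells, a log2 ratio of 5.61, and so took 25.4% and 0.0205% of the gene's FPKM. Both begin near the start that carries ERSE, 59 and 54 bases before it. PDIA6-207 has 14 exons against 13, with an extra exon of 178 bases at chr2:10810243-10810420 on GRCh38, of which 10 are coding, and it codes for 437 codons where PDIA6-201 codes for 440. The fold of PDIA6-207 depends on the value added to FPKM, since its static level is close to 0. Its log2 ratio ran from 3.44 with 5 FPKM added to 10.4 with none. PDIA6-201 and PDIA6-207 overlap over most of their length. How FPKM was divided between them was set by the abundance estimate, which was not checked here.

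MANF (ENSG00000145050.15_2, chr3:51385047-51389397, plus strand) encodes a small protein of the ER lumen that binds HSPA5 and is secreted under ER stress. It was at 32.8 FPKM in FSS and 21.8 FPKM in static cells, all in MANF-204. The log2 ratio of 0.57, or 1.48-fold higher, lay just under the 1.5-fold line, and without an added value the fold was 1.51. Its relative CDNF was listed at 0 in FSS and at 0.675 FPKM in static cells.

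HERPUD1 and SEL1L belong to one ER membrane complex, which moves misfolded proteins out to the proteasome. Their log2 ratios were 1.44 and 0.06. HERPUD1 (ENSG00000051108.14_4, chr16:56932048-56944863, plus strand), a ubiquitin-like membrane protein that organizes the complex, was at 17.3 FPKM in FSS-HepG2 cells, against 5.74 FPKM in static cells. This was 2.72-fold higher on the FPKM + 1 scale and 3.02-fold without an added value, with a centred log2 ratio of 1.67. SEL1L (ENSG00000071537.13_3, chr14:81471549-81533861, minus strand), the adaptor of the ubiquitin ligase SYVN1, was at 11.7 FPKM in FSS and 11.1 FPKM in static cells, with SEL1L-201 at 9.62 and 8.91 FPKM and SEL1L-204 at 2.08 and 2.23 FPKM.

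HERPUD1 was split over 8 listed transcripts, of which 6 were at least 1.5-fold higher in FSS, 0 lower and 2 within. HERPUD1-204, with 391 codons and the highest level, was at 6.95 FPKM in FSS and 2.33 FPKM in static cells, a log2 ratio of 1.25. Its share of the gene hardly moved, at 40.1% and 40.6%. The other 7 were scarce, between 0.344 and 2.29 FPKM in FSS and, from a listed 0 upwards, at most 0.956 FPKM in static cells. Among all 28 listed transcripts of the 10 genes, 11 were higher, 1 lower and 16 within 1.5-fold. For neither this count nor that of HERPUD1 was the share over all listed transcripts computed. Under 5 FPKM in both libraries were 12 of the 28, and the 5 higher ones among them were all of HERPUD1. Of the 16 with at least 5 FPKM in 1 library, 6 were higher, against 19.7% of all such transcripts in the table, and 1 was lower, against 32.6%.

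**Figure D3:**
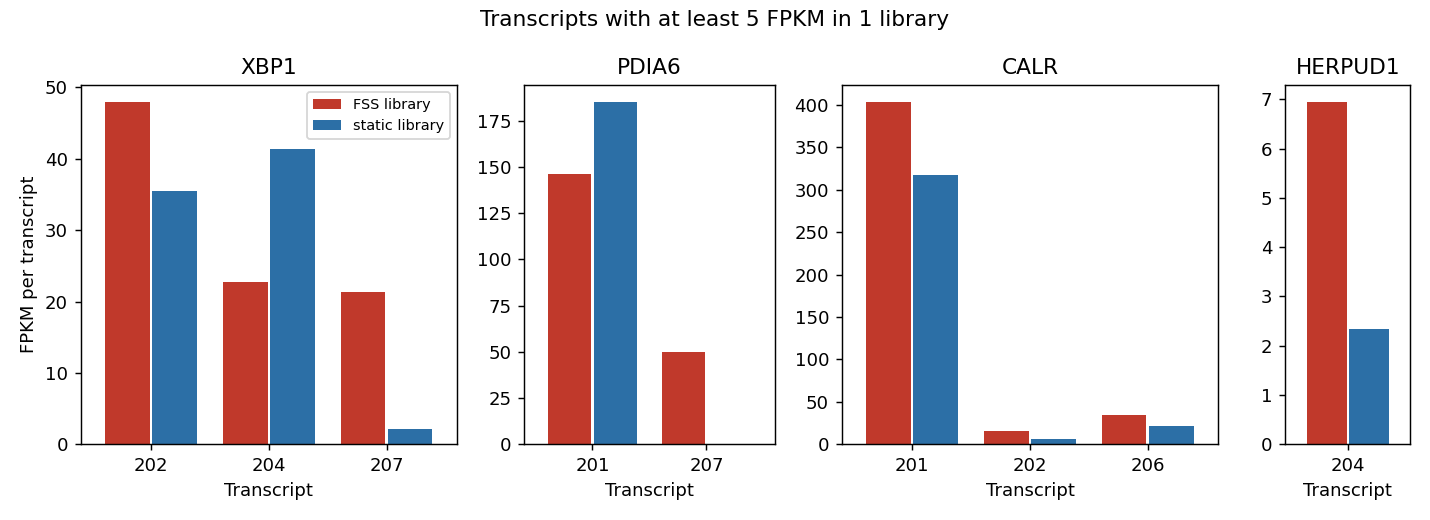
FPKM of the transcripts of XBP1, PDIA6, CALR and HERPUD1 with at least 5 FPKM in 1 library, with FSS as red bars and static as blue bars, each panel on its own axis from 0. XBP1-207 and PDIA6-207 are tall in FSS and at 2.13 and 0.0380 FPKM in static cells, while XBP1-204 is lower in FSS.

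ATF6 (ENSG00000118217.5_3, chr1:161766294-161964070, plus strand) was the only one of the 10 genes below the all-gene median. It was at 10.5 FPKM in FSS and 14.3 FPKM in static cells, all in ATF6-201, a log2 ratio of -0.41, or -0.18 after centring, within 1.5-fold either way. ATF6 is activated by cleavage of the protein, which RNA levels do not measure. Its relative ATF6B was at 12.9 FPKM in FSS and 21.8 FPKM in static cells (log2 ratio -0.71, within 1.5-fold after centring). The Golgi proteases MBTPS1 and MBTPS2, which release the factor, had 17.4 and 8.91 FPKM in FSS cells, against 35.6 and 18.1 FPKM in static cells. Their log2 ratios were -0.99 and -0.95, past 1.5-fold lower before centring and after it.

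XBP1 (ENSG00000100219.16_4, chr22:28794555-28800597, minus strand), the target of IRE1, had nearly the same sum in both libraries but a different mix of transcripts. The sum was 93.8 FPKM in FSS and 81.6 FPKM in static cells, a log2 ratio of 0.20. The block that IRE1 removes is shown in capitals within coding exon sequence of XBP1-201, from GENCODE release 29 on GRCh38, at chr22:28796124-28796149 on the minus strand, and below it the same stretch of XBP1-207, which lacks the 26 bases.
XBP1-201: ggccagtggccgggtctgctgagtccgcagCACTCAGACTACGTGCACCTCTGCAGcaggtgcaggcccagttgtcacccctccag
XBP1-207: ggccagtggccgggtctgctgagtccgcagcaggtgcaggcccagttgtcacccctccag
XBP1-202 lacks the block as well. Its gap is annotated 2 bases further along, which gives the same joined sequence, and its coding sequence of 1128 bases equals that of XBP1-207. The transcripts without the block code for 376 codons, and those with it for 261 in XBP1-201, 266 in XBP1-203 and 211 in XBP1-204, which starts at another first exon.

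XBP1-207 was at 21.3 FPKM in FSS-HepG2 cells and 2.13 FPKM in static cells, a log2 ratio of 2.83, or 7.12-fold higher. That ratio was 1.88 with 5 FPKM added and 3.32 with none. XBP1-202 was at 48.0 FPKM in FSS and 35.5 FPKM in static cells (log2 ratio 0.43, and 0.66 after centring, past 1.5-fold). XBP1-204 was at 22.7 FPKM in FSS and 41.4 FPKM in static cells, a log2 ratio of -0.84, and was the only one of the 28 transcripts at least 1.5-fold lower. XBP1-201 and XBP1-203, which carry the block from the main start, were scarce, with 1.32 and 0.575 FPKM in FSS and 1.60 and 1.02 FPKM in static cells.

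Summed, XBP1 transcripts without the block were at 69.3 FPKM in FSS and 37.6 FPKM in static cells, 1.82-fold higher. Those with the block summed to 24.6 FPKM in FSS and 44.0 FPKM in static cells, 1.76-fold lower. Transcripts without the block therefore made up 73.8% of XBP1 FPKM in FSS-HepG2 cells and 46.0% in static cells, a difference of 27.8 percentage points with no replicate check. XBP1-204 held most of the FPKM with the block, 22.7 of 24.6 in FSS and 41.4 of 44.0 in static cells. Without it the shares were 97.3% and 93.5%, or 3.85 points apart. The sums with the block were then 1.90 FPKM in FSS and 2.62 FPKM in static cells, 1.25-fold lower. The difference with the block thus lay mostly in XBP1-204, which has another first exon. Both shares are then close to 100%, which leaves little room for a difference in points. Whether the share reflects cutting by IRE1 was not tested. XBP1-204 begins 56 bases before a separate RefSeq start whose window held no ERSE, while the other 4 begin near the start that does. How FPKM was divided among transcripts that overlap over most of their length was set by the abundance estimate, and the number of reads across the joint was not analysed here.

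**Figure D4:**
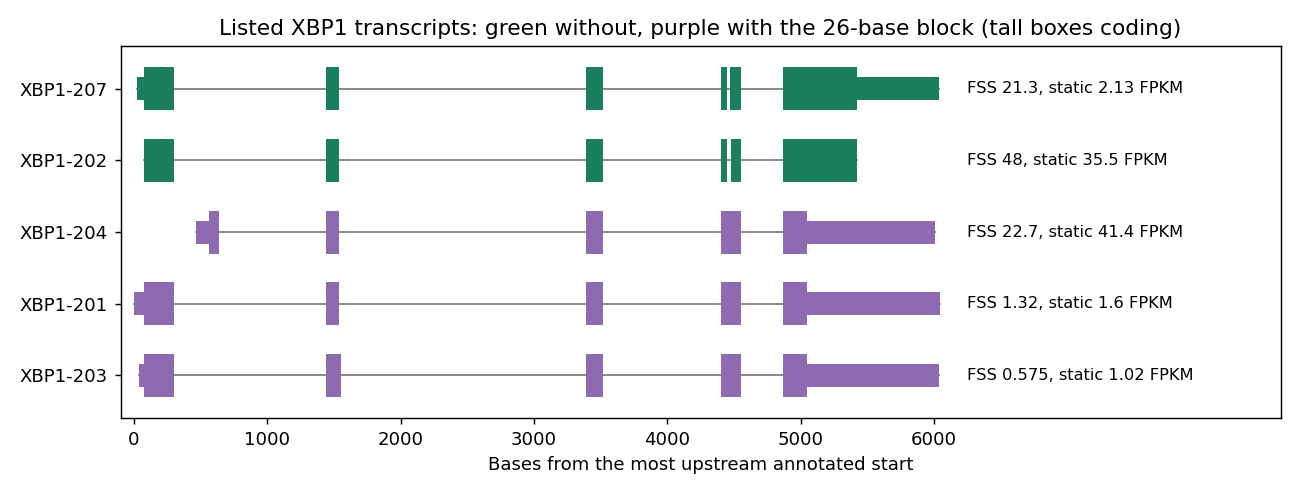
Exons of the 5 listed XBP1 transcripts by bases from the most upstream annotated start, tall boxes coding and low boxes not, green for transcripts without the 26-base block and purple for those with it. The FPKM at the right show XBP1-207 at 21.3 in FSS and 2.13 in static cells and XBP1-204, with its own first exon, at 22.7 and 41.4.

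Among the other genes of the pathway, ER chaperones and co-factors did not share the ratio of HSPA5. Of 33 measured genes, 4 of them described above, 5 were at least 1.5-fold higher, 7 lower and 21 within, with a median log2 ratio of -0.14. Over all genes, 10.5% were higher and 29.5% lower by as much. DNAJB9, a J-domain partner of HSPA5 that also restrains IRE1, was at 17.8 FPKM in FSS and 3.63 FPKM in static cells, a log2 ratio of 2.02. The prolyl isomerases FKBP7, at 2.39 and 8.18 FPKM, and FKBP10, at 24.2 and 63.7 FPKM, had log2 ratios of -1.44 and -1.36. DNAJC3, another J-domain partner of HSPA5, named after its values were seen, had a log2 ratio of 1.24. Of 21 measured disulfide isomerases and oxidases 1 was higher, 2 lower and 18 within, PDIA4 and PDIA6 among the last, with a median of 0.02. TXNDC5, an isomerase of the same family, was the lowest of these, at 11.7 FPKM in FSS and 45.4 FPKM in static cells.

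Of 34 measured genes of ER-associated degradation, HERPUD1 and SEL1L included, 7 were higher, 10 lower and 17 within, with a median of -0.14. The lower count is near the 29.5% of all genes, and the higher count is above their 10.5%, with no test. UBXN4, which recruits the extraction ATPase VCP to the ER, was at 60.8 FPKM in FSS and 22.4 FPKM in static cells, and the ubiquitin ligase RNF185 at 2.56 and 11.5 FPKM and AUP1 at 3.14 and 10.3 FPKM. SYVN1, the ligase that SEL1L serves, named after its values were seen, was at 10.1 and 14.1 FPKM. Of 20 measured sensors and transcription factors, ATF6 and XBP1 included, 2 were higher, 7 lower and 11 within, with a median of -0.27, counts near the 10.5% and 29.5% of all genes. ERN1, which encodes IRE1 itself, also named after its values were seen, was low in both libraries, at 3.13 and 2.87 FPKM.

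Genes of translocation, sugar transfer and ER-Golgi traffic, many of them driven by XBP1s in mouse and human cells, lay mostly within 1.5-fold. Of 45 measured, 7 were higher, 3 lower and 35 within, with a median of 0.12, and after centring 13 were higher and 1 lower. Over all genes, 10.5% were higher and 29.5% lower as deposited, and 17.8% and 17.9% after centring. The traffic GTPases SAR1A and SAR1B had opposite ratios, SAR1A at 47.8 FPKM in FSS and 13.8 FPKM in static cells and SAR1B at 7.90 and 25.8 FPKM. The list of the PERK and ATF4 arm gave a contrast in size, and whether PERK acted on its genes was not tested. Of its 14 measured genes 9 were higher, 0 lower and 5 within, with a median of 0.77, and its stress-induced genes DDIT3, at 87.7 and 6.52 FPKM, PPP1R15A, at 351 and 31.5 FPKM, and SESN2, at 83.0 and 6.93 FPKM, had log2 ratios of 3.56, 3.44 and 3.41. With each gene's highest transcript instead of its sum, 9 genes of that arm were higher and 3 lower. The share over all genes was not computed at that setting. With 5 FPKM added the median of the arm was 0.56. ATF4 itself, which is raised by translation of its mRNA, was at 341 FPKM in FSS and 422 FPKM in static cells (log2 ratio -0.31). Whether these lists differ from the 10 genes was not tested, since each comparison rests on the same 2 libraries.

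**Figure D5:**
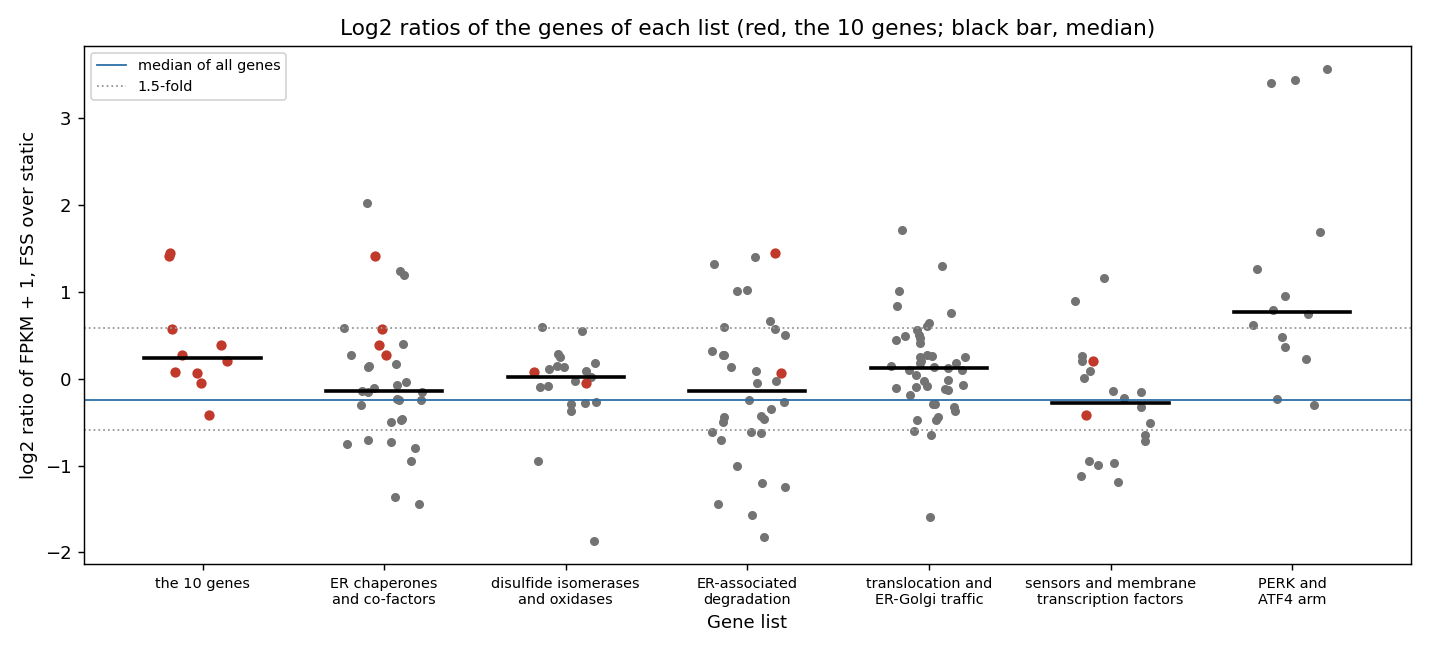
Log2 ratio of FPKM + 1, FSS over static, of each gene by list, with the 10 genes in red, other genes in grey, the median of each list as a black bar, the all-gene median of -0.25 as a blue line and 1.5-fold as dotted lines. The 10 genes have a median of 0.24, the 5 wider ER lists have medians between -0.27 and 0.12, and the PERK and ATF4 arm has a median of 0.77.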

How the data were processed

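Total RNA of HepG2 cells was sequenced on an Illumina HiSeq instrument, with 2 libraries, 1 per condition. The authors estimated transcript abundance with StringTie, extracted it with Ballgown and deposited it as FPKM. How RNA was selected and whether strand was kept is not given in the sources used here. Processing notes from the submitters also name cutadapt, HISAT2 2.0.5, STAR 2.5.2b and hg19. The deposited FPKM hold no counts, so depth and counting error are unknown. There were 0 value columns without a sample.

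FPKM were summed per symbol, genes with at least 0.5 FPKM in 1 library were kept, and log2 ratios used a pseudocount of 1 with a 1.5-fold line. No test was run. Transcript names were matched to GENCODE release 29 (34133 of 34714, and 28 of 28 here). The match was by name alone. Exons, codons and the presence of the XBP1 block were taken from that release. Whether each name stood for the same structure in the authors' annotation was not checked. Coordinates are those of GRCh38 from the annotation, and none was converted from hg19. Promoter windows came from RefSeq. In each wider list the 4 genes farthest from a log2 ratio of 0, with a mean of 5 FPKM or more, could be named, besides the related genes and the PERK arm. Genes outside that rule are marked in the text, apart from the cell type markers. The genes, lists and tests were chosen with earlier results of these data known. The XBP1 share and its alternatives were chosen after seeing the transcript values. The log2 ratios, sums per gene and fold calls were run on a simulated table with known folds and no added noise. This checks the arithmetic only. The transcript matching, the XBP1 share and the promoter search were not checked in this way. Python 3.11.15, numpy 2.4.6 and pandas 2.3.3 were used.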

Additional observations from a re-analysis of the deposited data

How the results depend on the processing

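With 1 library per condition, no replicate could be left out. No paired analysis was possible because each condition had 1 library. The alternatives were a pseudocount of 0.1 or 5 or none, centring, rescaling to 1000000, each gene's highest transcript instead of its sum, a filter at 5 FPKM or none, and a fold of 2. Of the 10 genes, PDIA4 changed sign after centring (0.18) and PDIA6 where its highest transcript stood for the gene (-0.34), both within 1.5-fold. The count of the 10 genes at least 1.5-fold higher was 4 after centring, and 3 with MANF included where the pseudocount was 0.1 or none or the libraries were rescaled. HSPA5 and HERPUD1 passed 1.5-fold under every alternative. In the XBP1 share, alternatives added after seeing the data gave a difference of 41.8 points without XBP1-202 and 3.85 points without XBP1-204, against 21.5 without XBP1-207, 31.9 weighted by length and 26.4 with 1 FPKM added to each transcript. Centring moved the ER chaperones to 8 higher and 3 lower, ER-associated degradation to 9 and 6, the isomerases to 2 and 2, and the sensors to 2 and 5. Over all genes, 17.8% were higher and 17.9% lower after centring. With 5 FPKM added, lower counts fell to 4 for the chaperones, 6 for degradation and 4 for the sensors, and at a fold of 2 to 2, 6 and 2. At that fold the translocation list had 3 higher and 1 lower and the PERK arm 5 higher. The PERK arm had 3 lower genes by highest transcript and a median of 0.56 with 5 FPKM added. Shares over all genes were computed only at 1.5-fold with a pseudocount of 1, as deposited and after centring. Counts at the other settings therefore have no such share beside them and cannot be read against those given.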
